A study of Mus musculus with 4 samples.

Results

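The genes described here are 6 of the 27998 genes counted in cells of malignant pleural effusion: Arg1, Arg2, Nos2, Slc7a2, Ass1 and Odc1. They were taken by gene symbol, and all 6 were present in the gene table. The questions put to them were which cells held their RNA, how their levels stood under each treatment, and whether Arg1 and Nos2 share cells.

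The effusion was raised in C57BL/6 mice with LLC cells, a mouse lung carcinoma line of that strain. The groups were LNP-cGAMP (1 µg), the anti-PD-L1 antibody 10F.9G2 (30 µg), the combination of both at those amounts, and PBS, all injected into the pleural space on day 11. cGAMP is a cyclic dinucleotide that binds the sensor STING, given here in a nanoparticle. Fluid was drawn 48 h later, on day 13, red cells were lysed, and cells of 3 mice per treatment were mixed before 4000 were loaded for droplet single-cell RNA sequencing. Each treatment was therefore 1 library of pooled mice, the labels give no age or sex, and no difference between treatments has a replicate check. Intervals below are 95% exact intervals (Poisson for levels, Clopper-Pearson for shares), and they cover counting error only.

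Arginine enters macrophages through cationic amino acid transporters, of which Slc7a2 encodes CAT2. Arginase, cytosolic from Arg1 and mitochondrial from Arg2, splits it into ornithine and urea, and ornithine decarboxylase, from Odc1, turns ornithine into putrescine, the entry to the polyamines. The inducible nitric oxide synthase, from Nos2, uses the same arginine to make nitric oxide and citrulline, and argininosuccinate synthase, from Ass1, takes citrulline back towards arginine. In mouse macrophages Arg1 is the textbook gene of the alternatively activated state and Nos2 that of the classically activated state, and both enzymes draw on 1 substrate.

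The libraries held UMIs (unique molecular identifiers, each standing for 1 captured RNA molecule) numbering 68828158 with LNP-cGAMP, 87696440 with anti-PD-L1, 88855120 with the combination and 86269137 with PBS. After filters 3839, 3396, 3525 and 2837 cells remained in that order of libraries, and pairs of libraries shared 16 to 20 cell barcodes. Classes were set per cell by the summed share of marker gene UMIs, and they are named below for the gate they passed. The monocyte/macrophage gate took 2245 LNP-cGAMP, 2023 anti-PD-L1, 2533 combination and 1655 PBS cells, the neutrophil gate 962, 863, 568 and 771, and the T cell gate 227, 136, 156 and 73. In monocyte/macrophage cells the defining gene C1qa stood at 3159 LNP-cGAMP, 3317 anti-PD-L1, 3744 combination and 3841 PBS CPM (UMIs of a gene scaled to a common total of 1000000), and the T cell gene Cd3e at 0.385 to 2.71 CPM. Within a factor of 1.5 of the gate's threshold lay 339, 380, 344 and 307 cells. The median monocyte/macrophage cell held 20637 UMIs in LNP-cGAMP, 32686 in anti-PD-L1, 21866 in the combination and 34441 in PBS, and its mitochondrial share was 1.06%, 3.20%, 2.09% and 3.31%. These cells also differed in state: with LNP-cGAMP 832, 662, 368 and 163 of them lay in the clusters led by Ccl12 and Ms4a7, by Mmp8 and Saa3, by Saa3 and Clec10a, and by Fabp5 and Ccl8. With PBS 637, 500 and 301 lay in the clusters led by Cd163 and Ccl24, by Lyve1 and Marco, and by Chil3 and Vcan. Of cells with a sex call from Xist and Y-linked UMIs, 0.185% were female in LNP-cGAMP, 68.1% in anti-PD-L1, 78.5% in the combination and 0.948% in PBS, so the pools differ in the mice they hold and treatment and mice cannot be told apart.

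Arg1 lay on chromosome 10 (chr10:24915221-24927484, minus strand, GRCm38 annotation) and was the most abundant of the 6 genes, with nearly all of its RNA in 1 class. Monocyte/macrophage cells held 97.7% of the Arg1 UMIs of all LNP-cGAMP cells, 98.6% with anti-PD-L1, 97.9% with the combination and 98.99% with PBS. Arg1 stood at 1793 CPM with LNP-cGAMP (interval 1781 to 1805). With anti-PD-L1 it stood at 4258 CPM (4242 to 4273), with the combination at 3452 CPM (3438 to 3466) and with PBS at 4728 CPM (4711 to 4746). LNP-cGAMP was the lowest library, and anti-PD-L1 the nearest to PBS. The level of LNP-cGAMP was 2.64-fold lower than that of PBS (2.62 to 2.66), a log2 ratio of -1.39 on the log2(CPM + 10) scale used for every ratio here. The combination stood 1.93-fold above LNP-cGAMP (1.91 to 1.94, log2 ratio 0.94) and 1.37-fold below PBS (1.36 to 1.38, log2 ratio -0.45). Anti-PD-L1 stood 1.11-fold below PBS (1.11 to 1.12). The median cell held 923 CPM in LNP-cGAMP, 3413 in anti-PD-L1, 2367 in the combination and 4127 in PBS, and the 10th percentile of cells lay at 40.5, 58.6, 151 and 261 CPM.

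Nos2 (chr11:78920787-78960254, plus strand) was rare in the same cells. With LNP-cGAMP it stood at 11.8 CPM (10.9 to 12.8), with anti-PD-L1 at 8.03 (7.39 to 8.72), with the combination at 9.22 (8.50 to 9.98) and with PBS at 2.24 (1.88 to 2.66). All 3 treated libraries stood above PBS. LNP-cGAMP stood 5.26-fold above PBS (4.35 to 6.39), anti-PD-L1 3.58-fold (2.96 to 4.36) and the combination 4.11-fold (3.402 to 4.99), and these ratios share the PBS library. On the log2(CPM + 10) scale, which shrinks changes of low genes, they were 0.83, 0.56 and 0.65. Cells with at least 1 Nos2 UMI made up 9.89% of LNP-cGAMP, 6.92% of anti-PD-L1, 7.94% of combination and 3.26% of PBS monocyte/macrophage cells. In T cells, which should lack the gene, 3 of 227 LNP-cGAMP, 0 of 136 anti-PD-L1, 0 of 156 combination and 2 of 73 PBS cells had a Nos2 UMI, at median depths of 15820, 7398, 17125 and 6040 UMIs. The Nos2 UMIs were uneven: 30 LNP-cGAMP, 28 anti-PD-L1, 36 combination and 7 PBS cells held at least 5 each, and with them 49.4%, 64.5%, 51.4% and 45.5% of the class total.

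The other members stood below Arg1 in this class. Arg2 (chr12:79130777-79156301, plus strand) stood at 14.5 CPM in LNP-cGAMP, 2.27 in anti-PD-L1, 3.31 in the combination and 1.67 in PBS. LNP-cGAMP stood 8.67-fold above PBS (7.02 to 10.8, log2 ratio 1.07), while the combination was 4.38-fold below LNP-cGAMP (3.76 to 5.13, log2 ratio -0.88). The combination stood 1.98-fold above PBS (1.55 to 2.53, log2 ratio 0.19) and anti-PD-L1 1.36-fold (1.05 to 1.76, log2 ratio 0.07). Free RNA, read from neutrophil genes as described below, would give 11.3% of this Arg2 with LNP-cGAMP and 37.6% with anti-PD-L1. With the combination it would give 19.5%, and with PBS 42.3%. Slc7a2 (chr8:40862396-40922308, plus strand) stood at 2.65 CPM in LNP-cGAMP, 13.98 in anti-PD-L1, 8.12 in the combination and 10.4 in PBS. It was 3.93-fold lower in LNP-cGAMP than in PBS (3.25 to 4.78, log2 ratio -0.69). Ass1 (chr2:31470207-31520672, plus strand) stood at 19.0 CPM in LNP-cGAMP, 12.4 in anti-PD-L1, 14.1 in the combination and 5.58 in PBS. Every treated library was above PBS, LNP-cGAMP by 3.401-fold (3.00 to 3.87, log2 ratio 0.90) and the combination by 2.52-fold (2.23 to 2.87, log2 ratio 0.63). Odc1 (chr12:17544794-17551505, plus strand) stood at 85.7 CPM in LNP-cGAMP, 104 in anti-PD-L1, 92.6 in the combination and 95.3 in PBS, with no ratio past 1.5-fold. CPM from 3' counts follow the number of molecules and not transcript length.

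A member was called where its log2 ratio passed 1.5-fold. For LNP-cGAMP over PBS in monocyte/macrophage cells, Arg2, Nos2 and Ass1 were called higher and Arg1 and Slc7a2 lower. Among the 3271 genes that reached 50 CPM in some library and 20 UMIs in all, 11.6% were called higher and 8.13% lower. Of the members Arg1 and Odc1 pass that entry. With the floor at 5 CPM, which all 6 members pass, 6.76% of 8911 genes were called higher and 5.94% lower. For the combination over PBS, Nos2 and Ass1 were called higher and none lower, against 4.28% of genes higher and 1.5% lower at the 50 CPM floor, and 2.23% and 0.931% at the 5 CPM floor. For the combination over LNP-cGAMP, Arg1 was called higher and Arg2 lower, against 3.45% and 2.87% of genes at the 50 CPM floor, and 2.5% and 1.57% at the 5 CPM floor. No member was called for anti-PD-L1 over PBS, where 1.56% of genes were called higher and 0.764% lower. None was called for the combination over anti-PD-L1 either, where the shares were 2.02% and 1.16%. For these 2 comparisons the shares are at the 50 CPM floor, which Arg1 and Odc1 alone of the members pass, and none is given at 5 CPM. The median log2 ratio over all entered genes was 0.06 for LNP-cGAMP over PBS, 0.01 for the combination over PBS and -0.05 for the combination over LNP-cGAMP. In clusters led by markers of another class lay 18 LNP-cGAMP, 44 anti-PD-L1, 49 combination and 27 PBS cells of the gate. Of them 10, 36, 47 and 13 lay in the cluster led by haemoglobin genes. Leaving out all of these cells ended none of these calls.

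**Figure D1:**
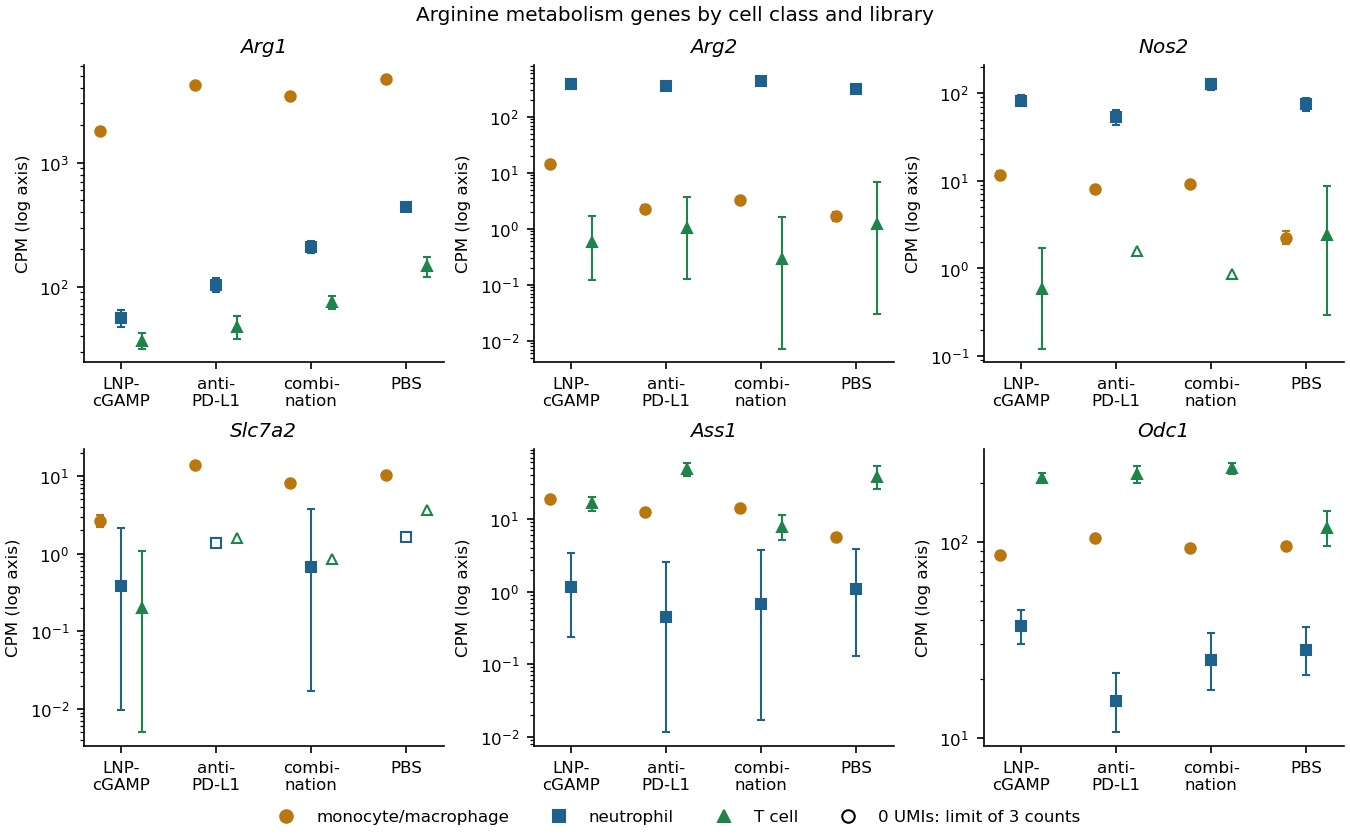
Level of each gene (CPM, log axis) in monocyte/macrophage cells, neutrophils and T cells of the 4 libraries, summed over the cells of a class, with 95% Poisson intervals (counting error only) and open symbols at the level of 3 counts where no UMI was read. Arg1 sits highest in monocyte/macrophage cells (1793 to 4728 CPM), Arg2 and Nos2 in neutrophils (313 to 444 and 53.0 to 127 CPM).

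Arg1 and Nos2 were read in the same monocyte/macrophage cells. With LNP-cGAMP, 210 cells held both genes, 1827 held Arg1 alone, 12 held Nos2 alone and 196 held neither. With anti-PD-L1 the counts were 133, 1724, 7 and 159 in that order, with the combination 197, 2268, 4 and 64, and with PBS 53, 1574, 1 and 27. Arg1 was thus present in 94.6% of the 222 Nos2-positive cells of LNP-cGAMP (90.7% to 97.2%) and in 90.3% of the 2023 Nos2-negative ones (88.9% to 91.6%). The pair of shares was 133 of 140 cells and 91.6% with anti-PD-L1, 98.01% and 97.3% with the combination, and 98.1% and 98.3% with PBS. Cells with Nos2 alone were few in every library, at most 12.

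Arg1 UMIs were also read in T cells, which should lack the gene. Of T cells 47.1% with LNP-cGAMP, 44.9% with anti-PD-L1, 76.3% with the combination and 71.2% with PBS held at least 1 Arg1 UMI. Read from the neutrophil genes S100a8, S100a9 and Retnlg, free RNA made up at most 4.99% of the UMIs of LNP-cGAMP monocyte/macrophage cells, 6.62% with anti-PD-L1, 5.67% with the combination and 1.84% with PBS. At the makeup of near-empty droplets this gives 79.2, 237, 188 and 61.3 CPM of Arg1. A level of 500 CPM stands above these values, and in T cells 0 of 227 with LNP-cGAMP (3 counts of 227 would be 1.32%, and the exact interval reaches 1.61%), 0.735% with anti-PD-L1, 2.56% with the combination and 11.0% with PBS reached it. Neutrophils, whose Arg1 is read below as background, reached it in 3.95%, 7.18%, 15.8% and 41.4% of cells in that order of libraries. Their median depths were 2504, 2327, 2529 and 2164 UMIs, and in cells so shallow the level does not set free RNA apart.

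At that level Arg1 was still present in most Nos2-positive cells. With LNP-cGAMP, Arg1 reached 500 CPM in 77.5% of Nos2-positive cells (71.4% to 82.8%) and in 59.96% of Nos2-negative cells (57.8% to 62.1%). With anti-PD-L1 the shares were 83.6% (76.4% to 89.3%) and 74.7% (72.6% to 76.6%), and with the combination 87.1% (81.6% to 91.4%) and 78.2% (76.5% to 79.9%). With PBS they were 85.2% (72.9% to 93.4%) and 86.1% (84.3% to 87.7%). The intervals of positive and negative cells did not overlap in LNP-cGAMP and the combination, overlapped narrowly in anti-PD-L1, and overlapped widely in PBS. They cover the counting of cells within 1 pool, whose cells differ in state and mouse. In the combination, 138 Nos2-positive cells were called female and 11 male. The part of state or mouse in these gaps was not tested. The median Arg1 level of Nos2-positive against Nos2-negative cells was 2158 against 830 CPM in LNP-cGAMP, 4547 against 3343 in anti-PD-L1, 3456 against 2288 in the combination and 4482 against 4123 in PBS. Nos2-positive cells were also deeper, with medians of 24804 against 20438 UMIs in LNP-cGAMP and 41024 against 34397 in PBS, so the medians were also taken at equal depth. Thinned to 10000 UMIs per cell, which left 2029 LNP-cGAMP, 1897 anti-PD-L1, 2269 combination and 1548 PBS cells, Arg1 was present in 90.2% of Nos2-positive and 85.9% of Nos2-negative cells with LNP-cGAMP, 90.9% and 1638 of 1820 cells with anti-PD-L1, 94.7% and 96.0% with the combination, and 100% and 98.2% with PBS. The intervals of each of these pairs overlap. At that depth the median Arg1 level of Nos2-positive against Nos2-negative cells was 2400 against 900 CPM in LNP-cGAMP, 3800 against 3600 in anti-PD-L1, 3150 against 2500 in the combination and 3100 against 4200 in PBS. The direction thus turned in PBS, on 29 Nos2-positive cells. Thinned to 2000 UMIs, it turned in the combination as well, at 2250 against 2500 CPM on 42 Nos2-positive cells, and stood at 2500 against 4000 CPM in PBS on 10. In LNP-cGAMP and anti-PD-L1 the Nos2-positive cells stood higher at both depths.

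**Figure D2:**
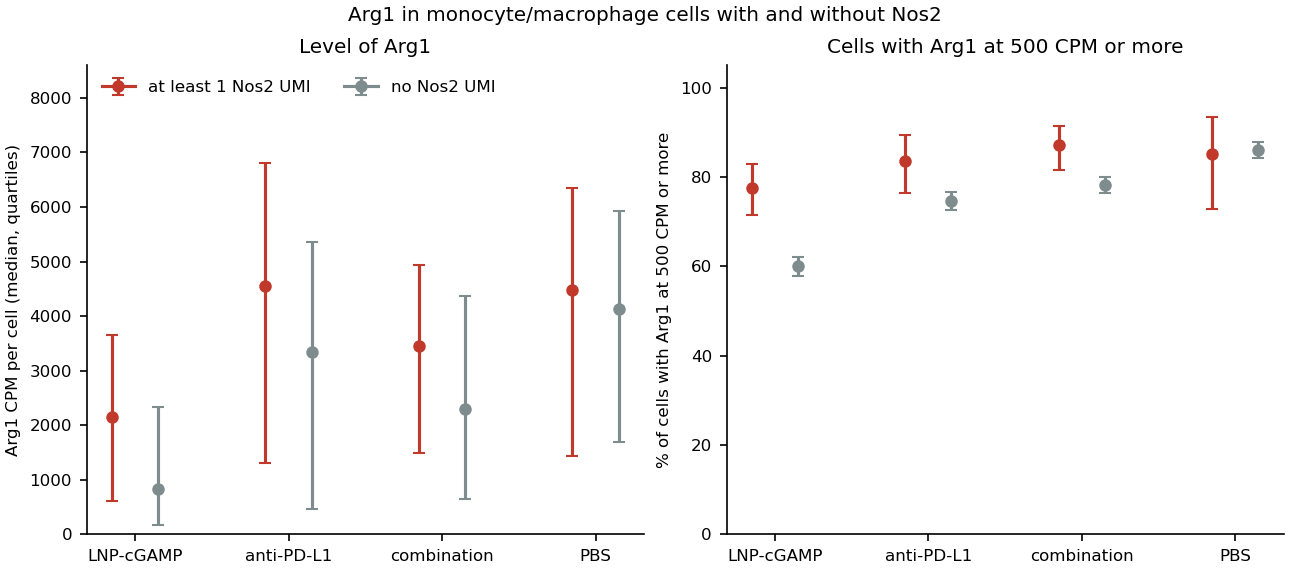
Arg1 in monocyte/macrophage cells with at least 1 Nos2 UMI and with none, per library: left, the median and quartiles of Arg1 over cells (CPM); right, the percentage of cells with Arg1 at 500 CPM or more, with exact 95% intervals. At the depth as sequenced, the median of Nos2-positive cells stands above that of Nos2-negative cells in each library, from 2158 against 830 CPM with LNP-cGAMP to 4482 against 4123 CPM with PBS. At 10000 UMIs per cell, which is not plotted, the PBS medians stand the other way, at 3100 against 4200 CPM.

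The cells richest in Nos2 were also rich in Arg1 at the depth as sequenced. Each of the 30 LNP-cGAMP, 28 anti-PD-L1, 36 combination and 7 PBS cells with at least 5 Nos2 UMIs held Arg1. Their median Arg1 level was 3846 CPM in LNP-cGAMP against 907 CPM in its other cells, 5232 against 3374 in anti-PD-L1, 4412 against 2340 in the combination and 5713 against 4124 in PBS. The lowest of them stood at 50.3, 52.4, 144 and 631 CPM of Arg1 in that order of libraries, so some had no more than free RNA gives. The summed median of the neutrophil genes S100a8 and S100a9 in these cells was 238 CPM in LNP-cGAMP against 204 in its other cells, and 379 against 159 CPM in PBS. The part of neutrophil RNA in these cells was not tested beyond those values.

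Ranking the cells by Arg1 and cutting them into 4 equal bins gave the relation from the other side. With LNP-cGAMP, Nos2 stood at 7.03, 4.33, 10.1 and 21.8 CPM (19.5 to 24.3 in the last) going from the lowest to the highest Arg1 bin. With anti-PD-L1 it stood at 7.25, 6.90, 6.24 and 10.9 CPM, and with the combination at 7.04, 7.90, 10.3 and 10.1 CPM. With PBS it stood at 3.29, 1.87, 2.11 and 2.21 CPM. The bin of highest Arg1 was the highest in Nos2 with LNP-cGAMP and anti-PD-L1, and in no library was Nos2 limited to the cells lowest in Arg1.

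**Figure D3:**
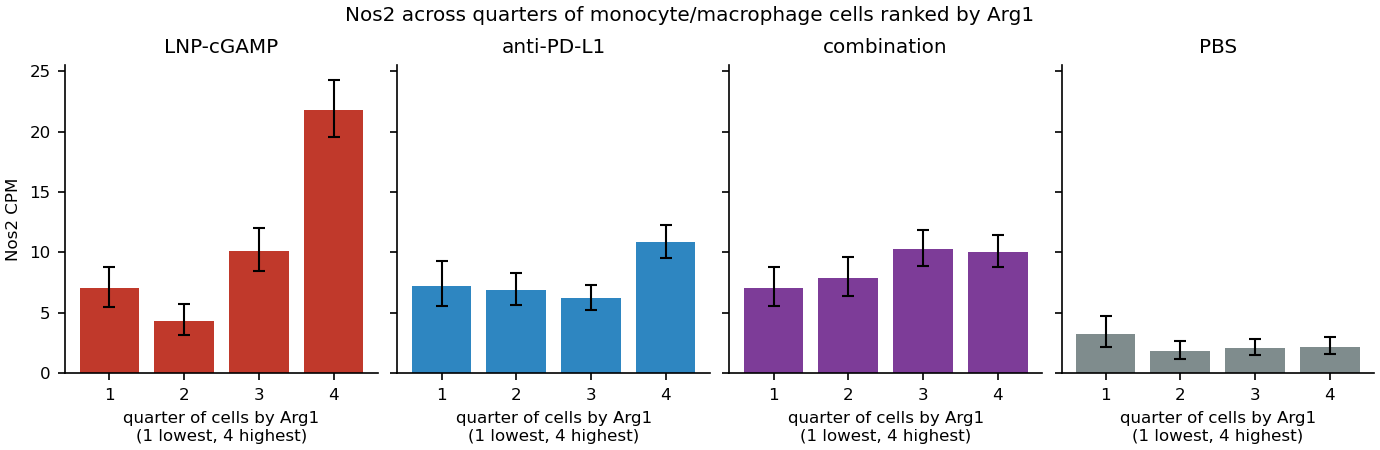
Nos2 (CPM, bars with 95% Poisson intervals, counting error only) in 4 equal bins of monocyte/macrophage cells ranked by Arg1, per library. With LNP-cGAMP the bars run 7.03, 4.33, 10.1 and 21.8 CPM from the lowest to the highest Arg1 bin, and with PBS 3.29, 1.87, 2.11 and 2.21 CPM.

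Clusters of monocyte/macrophage cells, made without the 6 genes, separated Arg1 from Nos2 in some states and joined them in others. The cluster led by Fabp5, Ccl8 and Ch25h was the richest in Nos2 and also rich in Arg1. It stood at 41.5 CPM of Nos2 with LNP-cGAMP (36.1 to 47.5) and 40.6 with the combination (35.3 to 46.5), and at 3195 and 3450 CPM of Arg1. It held 7.26% of LNP-cGAMP and 7.97% of combination cells, but 36.2% and 34.1% of the class's Nos2 UMIs. All 59 and 66 Nos2-positive cells of it held Arg1, and it held 1 anti-PD-L1 and 3 PBS cells.

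The cluster led by Cd163 and Ccl24 had Arg1 with under 1 CPM of Nos2. Arg1 stood there at 4043 CPM with anti-PD-L1, 3788 with the combination and 4048 with PBS, and Nos2 at 0.544, 0.610 and 0.194 CPM. The cluster led by Lyve1 and Marco had the highest Arg1, at 5760 CPM with anti-PD-L1, 5716 with the combination and 6094 with PBS. Its Nos2 differed by library, at 11.4 CPM with anti-PD-L1 (10.2 to 12.6), 7.34 with the combination (6.06 to 8.81) and 2.29 with PBS (1.73 to 2.97), and it held 58.7% of the Nos2 UMIs of anti-PD-L1. The cluster led by Chil3, Vcan and Ccr2, genes of recruited monocytes, was lowest in Arg1, at 539 CPM with LNP-cGAMP, 864 with anti-PD-L1, 1093 with the combination and 1664 with PBS. Nos2 stood there at 10.9 (7.56 to 15.3), 9.53, 10.3 and 6.82 CPM (4.64 to 9.69), with overlapping intervals.

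The level of Ass1 was highest in the same Chil3 and Vcan cluster in the 3 treated libraries, at 53.7 CPM with LNP-cGAMP (45.8 to 62.4), 22.2 with anti-PD-L1 and 38.5 with the combination, against 12.5 with PBS (9.504 to 16.3). In PBS the Alox15 and Prg4 cluster stood at 15.2 CPM. Larger clusters held more Ass1 UMIs in each library, such as the Ccl12 and Ms4a7 cluster of LNP-cGAMP with 482 against 167. Slc7a2 was highest in the cluster led by Alox15 and Prg4, genes of large cavity macrophages, at 51.7 CPM with LNP-cGAMP, 98.5 with anti-PD-L1, 48.0 with the combination and 117 with PBS. Of the 9 clusters with at least 20 cells in some library, LNP-cGAMP and PBS both reached 20 cells in the Chil3 and Vcan cluster and the Alox15 and Prg4 cluster. Within the Chil3 and Vcan cluster, LNP-cGAMP over PBS gave a log2 ratio of -1.61 for Arg1 and of 0.31 for Nos2, which is under 1.5-fold. Within the Alox15 and Prg4 cluster, of 24 LNP-cGAMP and 31 PBS cells, Arg1 stood at 3203 CPM with LNP-cGAMP and 5032 CPM with PBS. Nos2 there stood at 4.70 CPM with LNP-cGAMP (1.53 to 11.0) and 8.69 CPM with PBS (4.49 to 15.2), on 5 and 12 UMIs. On the log2(CPM + 10) scale, the class-wide difference of Nos2 past 1.5-fold was thus seen within neither cluster. The Chil3 and Vcan cluster held 162 of the 2245 LNP-cGAMP cells, with 34 Nos2 UMIs, and the Alox15 and Prg4 cluster 24. Most LNP-cGAMP cells therefore lay outside both, and for them no comparison within a cluster was possible.

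Within a state, the Arg1 level was mostly the higher one in Nos2-positive cells. Over the 17 pairs of cluster and library with at least 10 Nos2-positive cells, the median Arg1 level was higher in Nos2-positive than in Nos2-negative cells in 15 and lower in 2. The ratio of the medians ran from 0.577 to 2.24, with a median of 1.17. The largest was in the Ccl12 and Ms4a7 cluster of LNP-cGAMP, at 1031 CPM in 69 Nos2-positive cells against 460 CPM in Nos2-negative cells. The smallest was in the Chil3 and Vcan cluster of the combination, at 152 CPM in 20 Nos2-positive cells against 263 CPM. These medians are at the depth as sequenced and were not taken at equal depth, and the pairs share libraries and cells of 1 pool, so their number is a description.

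**Figure D4:**
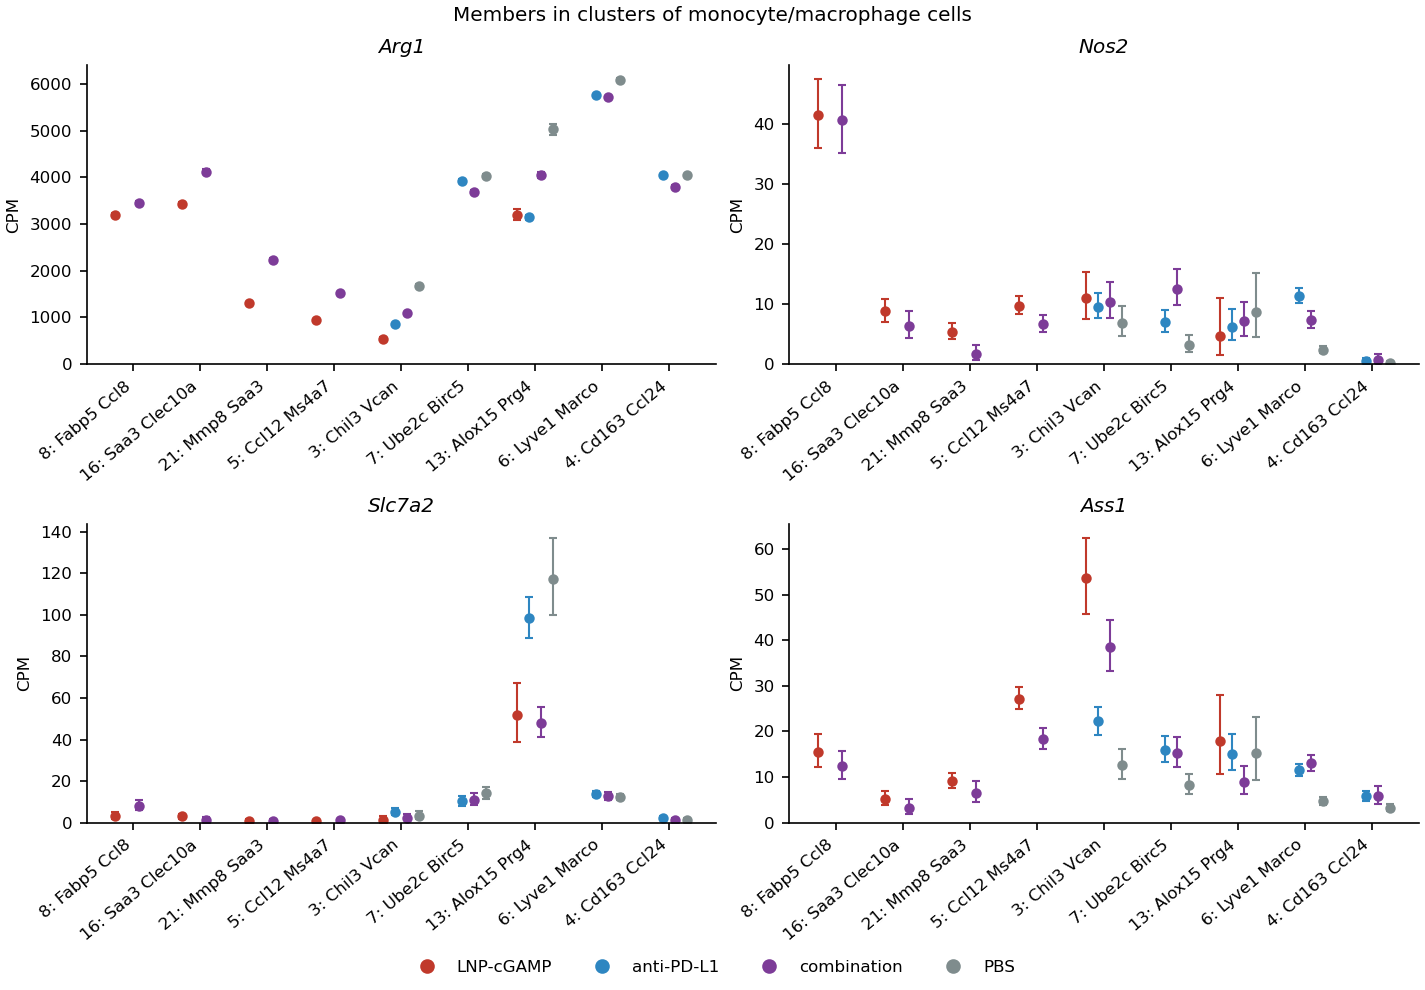
Arg1, Nos2, Slc7a2 and Ass1 (CPM with 95% Poisson intervals, counting error only) in clusters of monocyte/macrophage cells, by library, for clusters with at least 20 cells in that library. Nos2 stands at 41.5 and 40.6 CPM in the Fabp5 and Ccl8 cluster of LNP-cGAMP and the combination, where Arg1 stands at 3195 and 3450 CPM, and at 0.194 to 0.610 CPM in the Cd163 and Ccl24 cluster.

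The pools of mice differed, and members differed between cells called female and male, Nos2 and Ass1 in the combination among them. In the combination, the 1469 monocyte/macrophage cells called female stood at 9.98 CPM of Nos2 (9.06 to 11.0) and the 450 called male at 1.53 (0.857 to 2.53). Ass1 stood at 15.4 CPM in the female (14.3 to 16.6) and 3.57 in the male cells (2.49 to 4.97), while Arg1 stood at 3712 and 3354 CPM. Odc1 stood at 97.5 CPM in the female (94.6 to 100.5) and 72.9 in the male cells (67.6 to 78.4). The male cells of this library lay mostly (84.4%) in the 4 clusters that also held most LNP-cGAMP cells, the female ones by 41.05%. The clusters differed by sex call, however. Male cells lay by 48.9% in the Mmp8 and Saa3 and 34% in the Saa3 and Clec10a cluster, female cells by 0.477% and 0.613%. In the Ccl12 and Ms4a7 cluster lay 1.33% of male and 31.1% of female cells. The Fabp5 and Ccl8 cluster, richest in Nos2, held 0.222% of male and 8.85% of female cells. The acute phase gene Saa3 stood at 21090 CPM in the male and 1524 CPM in the female cells. In anti-PD-L1 the 1208 female and 602 male cells stood at 8.64 and 7.25 CPM of Nos2, and at 15.7 and 6.20 CPM of Ass1. Arg1 stood there at 4034 CPM in the female (4016 to 4053) and 4801 in the male cells (4772 to 4831). Slc7a2 stood at 16.1 CPM in the female (14.9 to 17.3) and 11.0 in the male cells (9.62 to 12.5). With cells called male alone, LNP-cGAMP over PBS stood at 1833 against 4751 CPM of Arg1 and 12.2 against 2.21 CPM of Nos2. These are 1991 of the 2245 LNP-cGAMP and 1448 of the 1655 PBS cells, since both libraries were nearly all male by these calls. They are mostly the same cells, so these values are no check on the pools of mice. The combination over PBS did not keep its calls: its log2 ratio became -0.082 for Nos2 and -0.20 for Ass1.

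**Figure D5:**
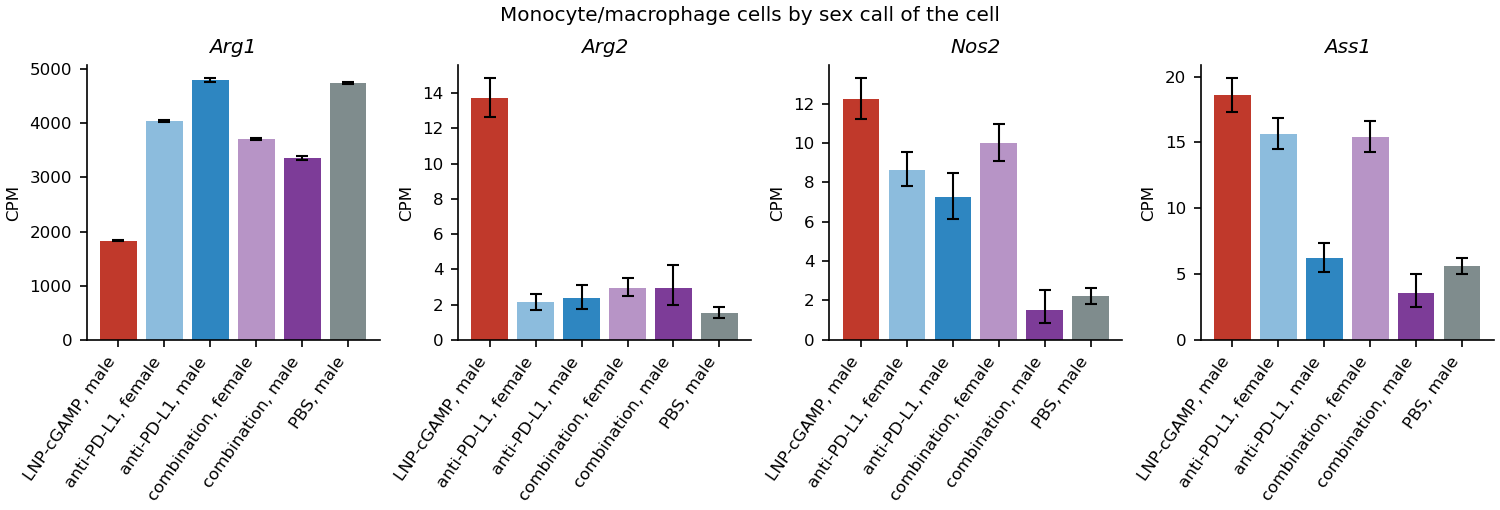
Arg1, Arg2, Nos2 and Ass1 (CPM, bars with 95% Poisson intervals, counting error only) in monocyte/macrophage cells split by the sex call of the cell, for splits with at least 50 cells. In the combination Nos2 stands at 9.98 CPM in female and 1.53 CPM in male cells, and in PBS at 2.21 CPM in male cells.

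Neutrophils held Arg2 and Nos2, and their Arg1 stood near or below the level that free RNA gives. Arg2 stood at 387 CPM with LNP-cGAMP (364 to 412), at 360 with anti-PD-L1 (336 to 386), at 444 with the combination (411 to 479) and at 313 with PBS (288 to 340), and neutrophils held 53.7% to 77.9% of a library's Arg2 UMIs. Nos2 stood at 82.3 CPM with LNP-cGAMP (71.7 to 94.1), at 53.0 with anti-PD-L1 (43.8 to 63.5), at 127 with the combination (109 to 146) and at 75.3 with PBS (63.4 to 88.9). The combination was the highest of the 4 for both genes. Free RNA read from C1qa, C1qb and C1qc gave at most 1.52% of the Arg2 and 1.68% of the Nos2 in these cells. Arg1 stood at 55.7 CPM in LNP-cGAMP, 104 in anti-PD-L1, 211 in the combination and 441 in PBS, and the same free RNA gives 84.5, 134, 244 and 411 CPM of Arg1, which is 152%, 129%, 116% and 93.2% of the level read. The neutrophil level of Arg1 was 3.10%, 2.45%, 6.10% and 9.33% of the monocyte/macrophage level, and that of the macrophage gene C1qa 3.51%, 2.47%, 5.53% and 8.18%. In PBS, C1qb stood at 9.10% and C1qc at 6.77% by that measure, both below Arg1. The PBS level of Arg1 read in neutrophils (interval 412 to 472 CPM) also lay above the 411 CPM from free RNA. Arg1 in neutrophils is read here as background, and its ratios between libraries as those of the background. Whether neutrophils made some Arg1 of their own was not tested. The median neutrophil held 2504, 2327, 2529 and 2164 UMIs.

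Nos2 in neutrophils was called higher for the combination over PBS, 1.68-fold (1.34 to 2.11, log2 ratio 0.68), and over anti-PD-L1, 2.39-fold (1.89 to 3.04, log2 ratio 1.12). It was not called for the combination over LNP-cGAMP (log2 ratio 0.57) or for either agent over PBS (LNP-cGAMP 0.11, anti-PD-L1 -0.44). Arg2 was called in none of the 5 comparisons, with log2 ratios of 0.19 to 0.49. Over the 2657 entered genes, 6.85% were called higher and 16.4% lower for LNP-cGAMP over PBS, 3.2% and 10.7% for anti-PD-L1 over PBS, and 5.01% and 18.6% for the combination over PBS. For the combination over anti-PD-L1 the shares were 3.46% and 3.65%, and over LNP-cGAMP 1.84% and 4.55%. The median log2 ratio of all genes was -0.17 with LNP-cGAMP over PBS, -0.15 with anti-PD-L1 and -0.25 with the combination, so the split leans lower. With TMM scaling, which sets that shift aside, 384 genes were called higher and 182 lower for LNP-cGAMP over PBS in place of 182 and 437, 242 and 120 for anti-PD-L1 in place of 85 and 283, and 322 and 146 for the combination in place of 133 and 495. With that scaling Arg2 passed 1.5-fold over PBS with LNP-cGAMP (log2 ratio 0.61) and the combination (0.84), and Nos2 reached 1.01 for the combination over PBS. Nos2 then also passed 1.5-fold, narrowly, for the combination over LNP-cGAMP.

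Arg2 and Nos2 also met in the same neutrophils. Arg2 was read in 71.2% of 118 Nos2-positive and 53.7% of 844 Nos2-negative neutrophils with LNP-cGAMP, 65.7% of 70 and 50.1% of 793 with anti-PD-L1, 62.7% of 102 and 60.5% of 466 with the combination, and 66.3% of 83 and 42.4% of 688 with PBS. Nos2-positive neutrophils were deeper, at 3328 against 2416 UMIs with LNP-cGAMP. Thinned to 2000 UMIs per cell, the shares were 55.4% and 50.6% with LNP-cGAMP, 57.7% and 47.1% with anti-PD-L1, 45.9% and 56.1% with the combination, and 67.4% and 41.2% with PBS. After thinning, the intervals of positive and negative cells were apart in PBS alone (52.0% to 80.5% and 36.5% to 46.0%).

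Beside Arg1, Ass1 and Odc1 were the members with more than 10 UMIs in T cells. Their promoters are shown because these 2 were called in T cells and are the 2 whose promoter windows were at hand from RefSeq (GRCm38.p6, plus strand, 250 bases before to 50 after the RefSeq gene start). Capitals mark the letters CACGTG (an E-box) and GGGCGG (a GC box), searched on both strands, so that CCGCCC is the second motif on the other strand.
Ass1 (chr2:31470020-31470319): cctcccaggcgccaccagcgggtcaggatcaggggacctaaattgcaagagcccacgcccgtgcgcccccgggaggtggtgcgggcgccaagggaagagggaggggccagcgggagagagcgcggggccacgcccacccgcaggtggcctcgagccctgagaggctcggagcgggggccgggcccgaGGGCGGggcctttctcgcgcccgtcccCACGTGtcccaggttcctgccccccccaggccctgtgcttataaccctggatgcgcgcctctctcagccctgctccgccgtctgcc
Odc1 (chr12:17544623-17544922): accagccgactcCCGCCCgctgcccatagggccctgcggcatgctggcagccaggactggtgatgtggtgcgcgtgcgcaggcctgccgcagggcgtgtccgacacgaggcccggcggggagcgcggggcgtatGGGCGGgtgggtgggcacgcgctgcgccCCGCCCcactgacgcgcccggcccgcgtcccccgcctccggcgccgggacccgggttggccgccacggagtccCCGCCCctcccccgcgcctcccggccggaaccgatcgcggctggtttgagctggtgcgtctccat
The Ass1 window holds 1 E-box, 36 bases before the gene start, and 1 GC box, 63 bases before it. The Odc1 window holds 4 GC boxes, 238 to 15 bases before the start, and no E-box match. An E-box stands in 7.15% and a GC box in 35.7% of the 32851 promoter windows of that table, and the letters TATAAA, in neither of these, in 13.6%.

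Odc1 summed over all T cells was higher with each treatment. Its level was 212 CPM with LNP-cGAMP (200 to 225), 220 with anti-PD-L1 (200 to 243), 236 with the combination (220 to 253) and 118 with PBS (95.5 to 144). The 3 treated libraries lay close together and above PBS, by 1.80-fold (1.46 to 2.24, log2 ratio 0.80), 1.87-fold (1.498 to 2.36, 0.85) and 2.01-fold (1.62 to 2.50, 0.95), with the PBS library shared by all 3. Ass1 ran the other way with LNP-cGAMP. Its level was 16.3 CPM with LNP-cGAMP (13.0 to 20.3), 48.7 with anti-PD-L1 (39.3 to 59.7), 7.77 with the combination (5.12 to 11.3) and 37.6 with PBS (25.6 to 53.4), and it was called lower over PBS for LNP-cGAMP (log2 ratio -0.85) and the combination (-1.42). Over the 3267 genes entered in T cells, 7.53% were called higher and 5.85% lower for LNP-cGAMP over PBS, 1.96% and 2.72% for anti-PD-L1, and 6.92% and 7.96% for the combination. Of the members Arg1 and Odc1 pass that entry in T cells, and Ass1, at most 48.7 CPM, does not. No share at a floor that Ass1 passes is given here, so its calls stand without one. Free RNA gives 121% to 166% of the Arg1 level read in T cells, and these levels are not read as expression.

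The T cells themselves differed between libraries. The cluster led by Gzmb and Cd8b1, genes of cytotoxic cells, made up 65.6% of T cells with LNP-cGAMP, 35.3% with anti-PD-L1, 65.4% with the combination and 20.5% with PBS. The cluster led by Bcl2, Il7r and Tcf7, genes of resting cells, made up 30.8%, 60.3%, 32.1% and 79.5%. Ass1 stood at 12.03, 20.2, 4.90 and 12.5 CPM in the Gzmb cluster and at 53.3, 116, 30.7 and 72.3 CPM in the Il7r cluster, in that order of libraries, so it was higher in the Il7r cluster in each. Odc1 stood at 233, 215, 248 and 124 CPM in the Gzmb cluster and at 72.8, 244, 67.6 and 110 CPM in the Il7r cluster. In the Il7r cluster LNP-cGAMP and the combination thus stood below PBS, with intervals that overlap that of PBS. The PBS value of the Gzmb cluster rests on 15 cells.

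Among the rarer gates, summed over the libraries, Odc1 was highest in the 86 LLC tumour cells, at 949 CPM (925 to 973). Its 3 libraries with at least 10 such cells gave 828 to 1244 CPM. Ass1 was highest in the 92 conventional dendritic cells, at 127 CPM (112 to 144). Nos2 stood at 15.2 CPM in LLC tumour cells (12.3 to 18.5), between 1.09 and 30.0 CPM in those libraries. The order of Arg1 over classes was monocyte/macrophage cells (3661 CPM over all libraries), then the 17 erythroid cells (373 CPM, 241 to 551), neutrophils (185 CPM), B cells (123 CPM) and conventional dendritic cells (78.7 CPM). The summed level of each class after the first lay below the 411 CPM that free RNA gave in PBS neutrophils, and no order is read among them.

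The genes around the members in the pathway were counted in monocyte/macrophage cells by the same rule, and each count stands against the 11.6% of entered genes called higher and 8.13% called lower for LNP-cGAMP over PBS. Of the 5 listed genes of arginine uptake and resynthesis, 2 entered, 1 was called higher and none lower for LNP-cGAMP over PBS, with a median log2 ratio of 0.59. Slc3a2, the shared heavy chain of amino acid transporters, stood at 384 CPM in LNP-cGAMP and 249 CPM in PBS. Of 9 genes of nitric oxide synthases, their cofactor and inhibitor clearance, 3 entered, 1 was called lower (median -0.20), and that was Qdpr, which recycles tetrahydrobiopterin, at 23.6 CPM in LNP-cGAMP and 50.9 CPM in PBS. Gch1, which starts the synthesis of that cofactor, stood at 78.9 and 71.3 CPM.

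Of 18 genes of ornithine, polyamines and proline, 8 entered, 1 was called higher and 3 lower (median -0.14). Smox, which oxidises spermine, stood at 50.2 CPM in LNP-cGAMP and 28.4 CPM in PBS. Srm, the spermidine synthase, stood at 21.9 CPM in LNP-cGAMP and 83.1 CPM in PBS, and Oat, which turns ornithine towards proline, at 35.8 and 84.0 CPM. Of 7 genes of the urea cycle and other arginine uses, 1 entered and was called lower: Gatm, the first enzyme of creatine synthesis, at 6.48 CPM in LNP-cGAMP and 44.6 CPM in PBS. Of 15 receptors and transcription factors known to act on Arg1 or Nos2, 13 entered, 3 were called higher and 1 lower (median 0.42). Irf1, an interferon-induced factor that acts on Nos2, stood at 338 CPM in LNP-cGAMP and 192 CPM in PBS. Klf4, a factor of alternative activation, stood at 64.2 CPM in LNP-cGAMP and 124 CPM in PBS. The median over all 3271 entered genes was 0.06. For the combination over PBS, 1 of the polyamine genes and 1 of the receptors and transcription factors were called lower, and no gene of these lists higher, against 1.5% of entered genes lower and 4.28% higher.

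Over 13 sums of class and library with at least 50 cells, the genes whose level followed Arg1 most closely were Ltc4s (Pearson r = 0.995), Cd36 (0.989), Cd5l (0.989), Mrc1 (0.988) and Itsn1 (0.983). For Nos2 they were Lipe (0.993), Usp32 (0.988), Fxyd5 (0.984), Tmem38b (0.983) and 1600014C10Rik (0.983). The sums share libraries and classes, 4705 genes were ranked on the log2(CPM + 10) scale, and r is given as a description. Both sets follow the contrast between classes, with Ltc4s at 866 CPM in PBS monocyte/macrophage cells and 97.4 CPM in PBS neutrophils, and Lipe at 10.9 and 56.5 CPM. The neutrophil and T cell sums are among those used, and their Arg1 is read above as background. Free RNA can carry other macrophage genes into these sums alongside Arg1, and its part in r was not tested.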

How the data were processed

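Droplet 3' single-cell RNA was measured in 4 pooled libraries, 1 per treatment. The deposited values are raw UMI counts per gene and barcode, for which, per the file headers, the authors used Cell Ranger 3.0.2, against build mm10 per the submitters' processing notes. The labels name 2 kit versions, and strand and multi-read handling are not given in the sources used here. Cells were barcodes above the valley of each library's UMI density (925 UMIs, 1105 in the combination) with at least 200 genes and at most 10% mitochondrial UMIs. Gates asked for at least 3 markers and a fixed share of marker UMIs (0.4% monocyte/macrophage, 2% neutrophil, 0.1% T cell). Cells passing several gates were left out, and no doublet caller was run. Clusters came from scanpy 1.11.5 (2000 variable genes without the 6 members, 30 components, 15 neighbours, resolution 1), and genes were summed per class to CPM. With 1 library a group no test was possible, and called means past 1.5-fold on the log2(CPM + 10) scale. Named pathway genes are, per list, up to 2 with the largest called ratio in each direction for LNP-cGAMP over PBS in monocyte/macrophage cells, and for likeness the 5 genes with the highest r. 1 gene that this rule names is not reported here. Members and lists were chosen with earlier results of these data known, and gate thresholds, the 500 CPM level, the 5 CPM floor, the bins of Arg1 and the thinning to 10000 UMIs after seeing the values. Ratios were tested on simulated data: of 200 genes changed 3-fold among 2968 in monocyte/macrophage cells (LNP-cGAMP over PBS), 100% were called. The changed genes were simulated with counting error only, at levels above those of Arg2, Nos2, Slc7a2 and Ass1 in this class. That share therefore does not hold for these members: Nos2 stood 3.58-fold above PBS with anti-PD-L1 (log2 ratio 0.56) and was not called. Alternatives, TMM among them (edgeR 4.0.16 factors), are in the closing section.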

Additional observations from a re-analysis of the deposited data

Results flagged for a closer look

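Ass1 ran past 1.5-fold in opposite directions in 2 classes. For LNP-cGAMP over PBS its log2 ratio was 0.90 in monocyte/macrophage cells and -0.85 in T cells, a difference of 1.75. For the combination over PBS it was 0.63 and -1.42, a difference of 2.05. With 1 library a group the difference was not tested, and both comparisons share the PBS library. The T cell values rest on 83 LNP-cGAMP, 27 combination and 31 PBS UMIs of Ass1. In T cells Ass1 lay below the 50 CPM entry of the genes counted, so no share of genes called stands beside them. Within the T cell cluster led by Bcl2, Il7r and Tcf7, Ass1 stood at 53.3 CPM with LNP-cGAMP (35.9 to 76.1), 30.7 with the combination (14.7 to 56.5) and 72.3 with PBS (46.8 to 107), and within the Gzmb cluster at 12.03, 4.90 and 12.5 CPM. Groups of 1 library leave no sample to compare with its own group.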

How the results depend on the processing

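No paired analysis was possible because each treatment is 1 library, and for the same reason no replicate could be left out. Arg1 in monocyte/macrophage cells, LNP-cGAMP over PBS, was lower past 1.5-fold in all 12 alternatives: its log2 ratio was -1.41 with classes from clusters, -1.36 with cells weighted equally, -1.45 with TMM scaling, -1.37 in cells called male and -1.61 within the Chil3 and Vcan cluster. Cells called male are most of the cells of these 2 libraries, so the value in them is no check on the pools of mice. Nos2 in the same comparison was 0.56 after thinning to 2000 UMIs and 0.31 within that cluster, both under 1.5-fold, and 1.98 with a pseudocount of 1. In cells called male, the combination over PBS reversed to -0.082 for Nos2 and -0.20 for Ass1. Arg1 in T cells reversed with classes from clusters, to 1.65 for anti-PD-L1 over PBS and 1.20 for the combination over PBS, and was 0 after free RNA was subtracted; the cause of these reversals was not tested. The share of Nos2-positive LNP-cGAMP cells with Arg1 was 79.5% of 44 cells thinned to 2000 UMIs, 90.2% thinned to 10000, 68.8% of 16 cells within the Chil3 and Vcan cluster, and 77.5% at 500 CPM of Arg1. Of the 9 called ratios among 30 in monocyte/macrophage cells, 6 were called in all their alternatives and 7 kept their direction in all. Cells called male left 24 ratios, and the minimum at 0.1 of the 99th percentile 29, without a value in neutrophils and T cells, under 50 cells. In neutrophils Slc7a2 and Ass1 had at most 3 UMIs a library.

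Counts of all genes past 1.5-fold (higher, then lower) with no minimum of UMIs or CPM were 602 and 529 in monocyte/macrophage cells for LNP-cGAMP over PBS, as with a minimum of 5 CPM, and those that moved by over 1.5 times elsewhere were 38 lower for anti-PD-L1 over PBS, 83 lower for the combination over PBS and 223 higher for the combination over LNP-cGAMP. In neutrophils they were 1150 lower for LNP-cGAMP, 130 and 835 for anti-PD-L1 and 1332 lower for the combination over PBS, 162 and 231 for the combination over anti-PD-L1, and 116 and 263 over LNP-cGAMP. In T cells they were 518 and 608 for LNP-cGAMP, 306 and 324 for anti-PD-L1, and 435 and 836 for the combination over PBS. TMM scaling gave, in neutrophils over PBS, 384 and 182 for LNP-cGAMP, 242 and 120 for anti-PD-L1, and 322 and 146 for the combination. A pseudocount of 1 gave 75 lower for the combination over PBS in monocyte/macrophage cells and, in neutrophils, 155 lower for the combination over anti-PD-L1 and 79 higher for the combination over LNP-cGAMP.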
